A study of Mus musculus with 12 samples.

Results

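The genes described are the nuclear genes of the respiratory chain and the ATP synthase, measured in mouse liver. The members were taken by symbol, as every gene whose symbol starts with Nduf, Uqcr, Cox4 to Cox8 or Atp5, or is Sdha, Sdhb, Sdhc or Sdhd. Of 23420 genes listed, 92 symbols matched, and 87 had a mean of at least 10 counts over the 12 libraries and were kept. The 87 comprised 35 complex I subunits, 7 complex I assembly factors, 4 complex II subunits, 8 complex III subunits, 14 complex IV subunits, 15 ATP synthase subunits and 4 genes whose symbols matched but that are no subunit of these complexes. Just inside and outside that minimum, Cox8b had 313 counts over all libraries and Cox4i2 had 43. The other genes left out were Cox6a2, with 37 counts, and Ndufs5, Cox7b2 and Cox8c, which were listed at 0 in every library.

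The data were poly(A) RNA-seq counts from livers of C57BL/6 mice in 4 groups of 3 libraries. A backcross of at least 7 generations is given for every sample. The control group, p62F/F, carried floxed alleles of Sqstm1, the gene of the autophagy adaptor p62, and no Cre recombinase. The p62Δhep group carried the same floxed alleles with Alb-Cre, a transgene that drives Cre from the albumin promoter in hepatocytes. The Tsc1Δhep group carried floxed Tsc1 with Alb-Cre, and Tsc1 encodes hamartin, part of the brake on mTORC1, a kinase that drives growth. The Tsc1/p62Δhep group carried floxed alleles of both genes with Alb-Cre, and its Tsc1 deletion was shared with the group it was compared with. Cre was therefore present in every group except p62F/F, and in the comparison of p62Δhep with p62F/F an effect of Cre cannot be told apart from that of the deletion. The sources used here give no age, and do not say which mice ate the low-fat or the high-fat diet that the study describes. Whether each library is its own animal is not stated in the labels, so p-values measure the spread between these libraries.

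The respiratory chain passes electrons from NADH at complex I and from succinate at complex II, through ubiquinone to complex III, cytochrome c and complex IV, where oxygen is reduced. Complexes I, III and IV pump protons across the inner mitochondrial membrane, and the ATP synthase, complex V, uses their return to make ATP. Complex II is also the succinate dehydrogenase of the citric acid cycle and pumps no protons. Hepatocytes are rich in mitochondria and rely on this system for gluconeogenesis, urea synthesis and fatty acid oxidation. Most subunits are encoded in the nucleus, as all members here are.

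Library totals ran from 15792048 to 33377247 counts, and the members held 0.702% to 1.08% of the counts in the table of p62F/F and p62Δhep and 1.18% to 2.22% in that of Tsc1Δhep and Tsc1/p62Δhep. Levels are in CPM, counts scaled to the size of the library, with sizes set within each of these tables unless stated otherwise. In p62F/F, Sqstm1 was at 316 to 351 CPM, and in p62Δhep at 12.4 to 19.8 CPM. In Tsc1Δhep it was at 789 to 1210.0 CPM, and after deletion of both genes at 14.4 to 19.6 CPM. The level of Tsc1 itself was 26.0 to 39.7 CPM in the 6 libraries with the gene intact and 5.39 to 13.7 CPM in the other table, so both targeted genes followed the labels. In bulk liver, fewer cells of a type and less RNA per cell cannot be told apart. No library pair of a group agreed within sampling noise, with a chi-square statistic of 36.2 to 325 per gene.

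The results turn on a few genes that parted from their partners within a complex. The promoters of Sdha, Cox6b2 and some of their partners are shown side by side. Of the 87 members, 74 matched an entry in RefSeq promoters of GRCm38.p6, which span 250 bases before to 50 after the start. The stretches below run from 100 bases before the start to 30 after it. They lie at chr13:74350211-74350340, minus strand for Sdha, chr4:140961171-140961300, plus strand for Sdhb and chr9:50603820-50603949, minus strand for Sdhd. The stretch of Cox6b1 lies at chr7:30626085-30626214, minus strand, and that of its isoform Cox6b2 at chr7:4753065-4753194, minus strand. Capitals mark the ETS letters CCGGAAG on either strand.
Sdha: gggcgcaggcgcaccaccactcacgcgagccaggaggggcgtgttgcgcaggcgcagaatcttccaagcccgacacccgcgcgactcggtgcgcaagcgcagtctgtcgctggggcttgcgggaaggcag
Sdhb: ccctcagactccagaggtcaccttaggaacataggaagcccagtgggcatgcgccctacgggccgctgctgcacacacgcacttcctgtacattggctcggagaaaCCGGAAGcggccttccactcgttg
Sdhd: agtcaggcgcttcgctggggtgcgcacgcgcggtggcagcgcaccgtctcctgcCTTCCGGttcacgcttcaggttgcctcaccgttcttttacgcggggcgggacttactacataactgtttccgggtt
Cox6b1: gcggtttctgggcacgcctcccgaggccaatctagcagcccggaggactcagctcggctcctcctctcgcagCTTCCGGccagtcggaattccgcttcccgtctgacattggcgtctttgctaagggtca
Cox6b2: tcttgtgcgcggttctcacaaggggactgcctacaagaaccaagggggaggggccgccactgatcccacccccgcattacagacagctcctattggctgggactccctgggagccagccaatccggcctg
The ETS letters stood in the stretches of Sdhb, Sdhd and Cox6b1 and in none of the windows of Sdha and Cox6b2. Sdhc, another partner of Sdha, is not shown and was not among the members in which these letters were found. Nor were Uqcrfs1, Ndufaf5, Ndufaf7 and Atp5sl, also not shown. Ndufaf5 and Atp5sl held other letters named below and so were searched. Whether Sdhc, Uqcrfs1 and Ndufaf7 had a promoter entry is not given here. Most of the 74 members searched lacked the ETS letters, among them members that were not called. Whether the letters sort the genes that parted from those that did not was not tested. In the full windows of 300 bases, searched on both strands, the same letters stood in 16 of 74 members (21.6%) and in 9.12% of all 27025 promoters. The letters GCGCATGCG, bound by NRF1, stood in 10 members (13.5%) and in 1.81% of all promoters. AAGATGGCG, the YY1 letters, stood in 7 members (9.46%) and in 1.49% of all. TCAAGGTCA, bound by the ERR nuclear receptors, stood in 2 members, Sdhd and Atp5g3 (2.70%), and in 0.407% of all. None of these motifs contains another, and a match is a description of the letters only.

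By library totals, the summed level of the members was alike in the groups with Tsc1 intact and higher in the libraries of the other table. The mean was highest in Tsc1Δhep, where the libraries spread widely. Scaled by library totals, the sum in p62F/F was 8898 ± 1335 CPM and that in p62Δhep 8892 ± 1895 CPM (SD, n = 3). It was 16918 ± 4854 CPM in Tsc1Δhep and 12295 ± 627 CPM in Tsc1/p62Δhep (SD, n = 3). These 2 pairs of groups came from separate tables, so a difference of the tables cannot be told apart from the Tsc1 deletion, and levels across tables were not tested. In every one of the 6 libraries with Tsc1 deleted, 33 of 87 members stood above all 6 libraries with Tsc1 intact. There were 27 such members when all 12 libraries were scaled together by TMM. The share of all genes that did so was not computed, so these counts cannot be read as particular to the members. By TMM over 12 libraries, the summed level was 14776 ± 5066 CPM in Tsc1Δhep and 13503 ± 1008 CPM in Tsc1/p62Δhep (SD, n = 3). On that scale Tsc1Δhep library 3, at 10155 CPM, lay below every Tsc1/p62Δhep library and below p62Δhep library 1, at 10321 CPM.

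The ATP synthase was the most abundant of the complexes in counts in every group, as a sum over its 15 genes. It summed to 2914 to 3773 CPM in p62F/F, 2550 to 3894 CPM in p62Δhep, 5283 to 7735 CPM in Tsc1Δhep and 4389 to 4784 CPM in Tsc1/p62Δhep, by library totals. Complex I, which takes electrons from NADH, summed to 1959 to 2524, 1736 to 2642, 2903 to 5331 and 2710 to 3067 CPM in the same order of groups. Complex III summed to 911 to 1212, 786 to 1228, 1355 to 2429 and 1360 to 1529 CPM in that order. The ranges of p62F/F and p62Δhep overlapped in all these complexes. Complex IV, the cytochrome c oxidase, had the widest spread in Tsc1Δhep, at 1807 to 4866 CPM, against 1759 to 2061 CPM in Tsc1/p62Δhep, 1275 to 1688 CPM in p62F/F and 1085 to 1775 CPM in p62Δhep. Complex II summed to 743 to 1008 CPM in p62F/F, 683 to 1027 CPM in p62Δhep, 1000 to 1438 CPM in Tsc1Δhep and 1322 to 1343 CPM in Tsc1/p62Δhep. It was the only one of the complexes whose mean was higher in Tsc1/p62Δhep than in Tsc1Δhep, at 1335 against 1188 CPM by library totals, where the ranges overlapped. Scaled within its table, complex II was at 1473 to 1550.1 CPM in Tsc1/p62Δhep and 905 to 1354 CPM in Tsc1Δhep, without overlap, and by TMM over 12 libraries at 1431 to 1511 against 884 to 1306 CPM.

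**Figure D1:**
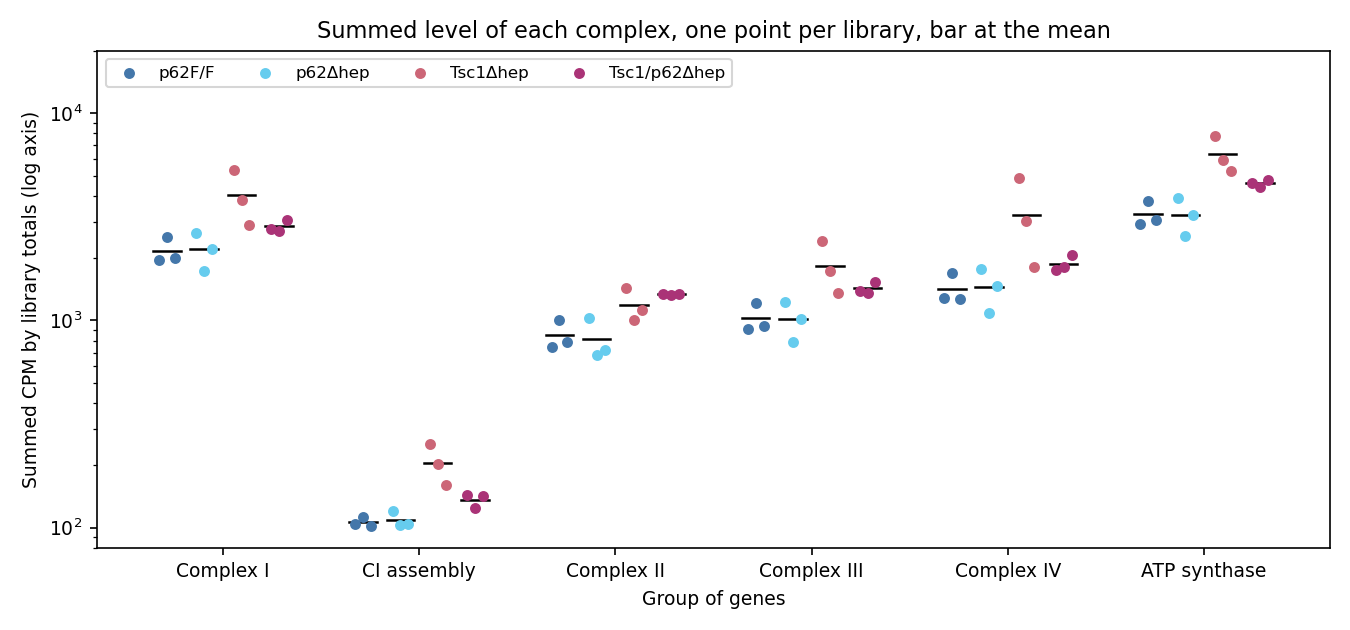
Summed CPM of each complex by library totals on a log axis, with 1 point per library and a bar at the mean of each group of 3. The Tsc1Δhep libraries spread the most in complex IV, from 1807 to 4866 CPM, and the Tsc1/p62Δhep libraries lie close together in every complex.

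Some members went against this pattern between tables. Atp5l, subunit g of the ATP synthase, was at 75.3, 83.9 and 70.2 CPM in p62F/F libraries and 92.8, 62.4 and 84.4 CPM with p62 deleted, but at 1.47, 0.433 and 0.188 CPM in Tsc1Δhep and 0.565, 0.852 and 1.17 CPM in Tsc1/p62Δhep. Ndufab1, the mitochondrial acyl carrier protein, was at 31.7, 37.5 and 31.9 CPM in p62F/F and 9.83, 6.77 and 6.43 CPM in Tsc1Δhep. Atp5g2, a gene of the c subunit, was at 38.1, 40.3 and 35.3 CPM in p62F/F and 22.0, 26.6 and 17.7 CPM in Tsc1Δhep. These 3 were the members below all 6 Tsc1-intact libraries in every library with Tsc1 deleted, by library totals and by TMM over 12 libraries. The share of all genes below in this way was not computed. Across all genes, 6 were over 10-fold lower in every library of the Tsc1-deleted table, Atp5l among them, and 0 were over 10-fold lower in the other table, among genes over 10 CPM in 6 libraries of a table. Genes of the respiratory chain have many processed pseudogenes, and the sources used here do not say how the authors counted reads shared with such copies, so the level of Atp5l in particular is uncertain.

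With Tsc1 intact, no member passed the test when p62 was deleted in hepatocytes. Of 84 members tested in p62Δhep against p62F/F, 0 were called at an adjusted p below 0.05 by edgeR, and 0 had an unadjusted p below 0.05. DESeq2 and limma called 0 as well. Across all 12567 genes tested in this comparison, 0.0159% were called. Log2 fold changes ran from -0.62 for Ndufa4l2 to 0.25 for Atp5k, with a median of 0.02 beside 0.00 over all genes. For 82 of 84 members, the log2 fold change ± 2 SE lay within a 2-fold change in either direction. Groups did not overlap for 1 of 84 members (1.19%), the complex I assembly factor Ndufaf6, against 12.8% of all genes.

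No complex stood apart in that comparison. The median log2 fold change was 0.06 for the 35 complex I subunits, 0.05 for their 7 assembly factors, −0.03 for complex II, 0.01 for complex III, 0.04 for the 11 complex IV subunits tested and 0.00 for the ATP synthase. The smallest adjusted p was 0.688, for Ndufc1, an accessory subunit of complex I. It was at 17.7, 20.9 and 16.7 CPM in p62F/F, with 23.1, 19.4 and 22.8 CPM for p62Δhep, and the groups overlapped. Sdha, the succinate-binding flavoprotein of complex II, was at 403, 463 and 392 CPM in p62F/F. In p62Δhep it was at 487, 396 and 341 CPM, a log2 fold change of -0.04 with an adjusted p of 0.973. Atp5b, the catalytic beta subunit of the ATP synthase, was at 808, 912 and 806 CPM and 948, 734 and 854 CPM in these groups (log2 fold change 0.01). Cox6b2, Cox7a1 and Cox8b had too few counts in these libraries to be tested.

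Within a group, the members moved together from library to library. In p62F/F, library 2 was the highest of the 3 for 73 of 87 members and library 3 the lowest for 73. In p62Δhep, library 1 was the highest for 55 and library 2 the lowest for 76. The differences were small in these groups, with a median coefficient of variation of 10.9% in p62F/F and 15.8% in p62Δhep. In Tsc1Δhep, library 1 was the highest for 77 of 87 members and library 3 the lowest for 76, and 71 members met both. The median ratio of library 1 to library 3 was 2.18 on CPM + 1. The members' median coefficient of variation in Tsc1Δhep was 41.1%, against 31.3% over all genes, and in Tsc1/p62Δhep it was 10.9%, against 14.9%. Only Sdha, Ndufs1 and Ndufaf1 were highest in Tsc1Δhep library 3. For 58 of 87 members, all 3 Tsc1/p62Δhep libraries lay within the range of the Tsc1Δhep libraries. The shares of all genes ordered or placed in these ways were not computed, so these counts cannot be read as particular to the members. Over all genes tested, 563 of 635 with transcripts under 1000 nucleotides were higher in Tsc1Δhep library 1 than in library 3. The same held for 5684 of 11902 longer ones.

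**Figure D2:**
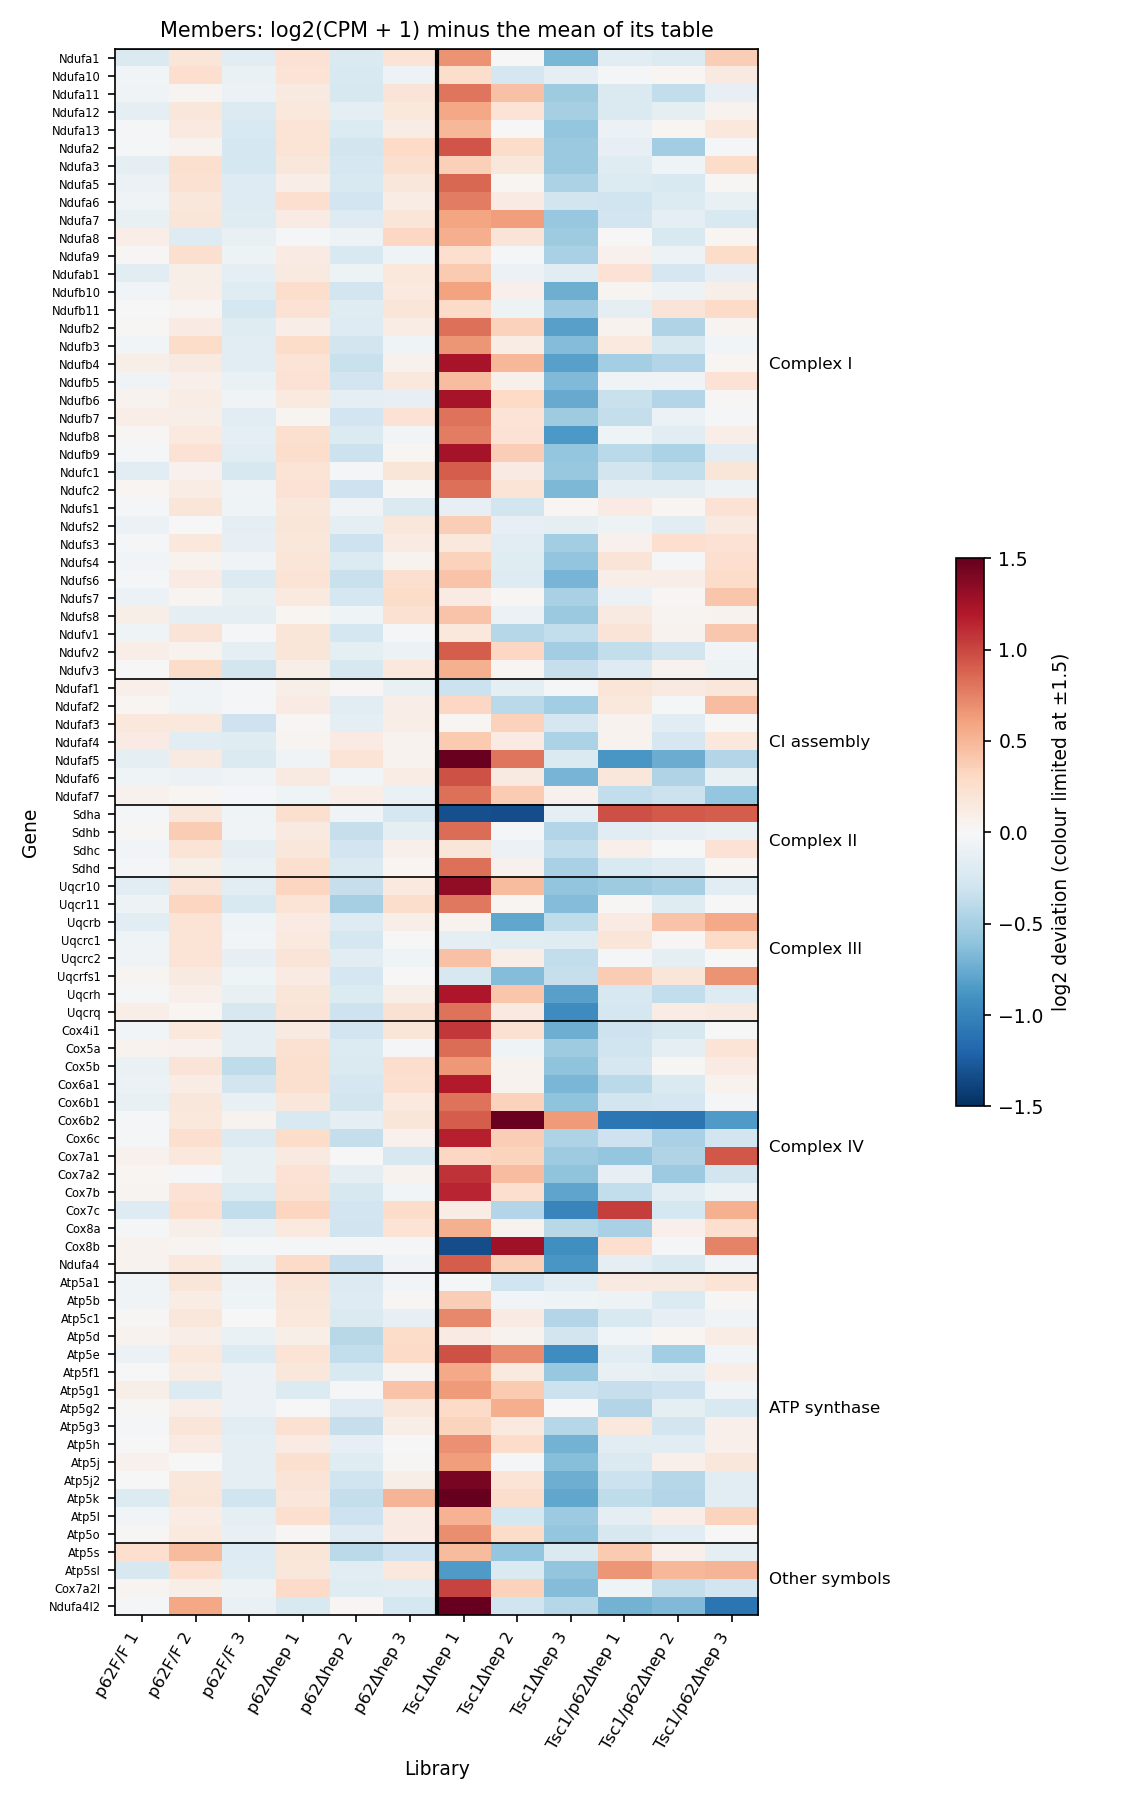
Each row is a member and each column a library; colour is log2(CPM + 1) minus the mean of the 6 libraries of its table, limited at ±1.5. Most rows are red in Tsc1Δhep library 1 and blue in library 3, with Sdha, Uqcrfs1 and Atp5sl among the rows that are highest in Tsc1/p62Δhep.

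With Tsc1 deleted, loss of p62 changed 6 of the 87 members, and these were spread over complexes II, III and IV, complex I assembly and 1 gene outside the complexes. Sdha, Uqcrfs1 and Atp5sl rose, and Cox6b2, Ndufaf5 and Ndufaf7 fell, in Tsc1/p62Δhep against Tsc1Δhep. The 3 that rose were 3.45% of the members, against 9.25% of all genes called higher, and the 3 that fell were 3.45%, against 14.9% called lower. The 6 together were 6.90% of the members, against 24.2% of all 12620 genes tested. Of the members, 9 had an unadjusted p below 0.05. The median log2 fold change of the members was −0.19, beside −0.05 over all genes, with 26 members above 0 and 61 below. Groups did not overlap for 13 of 87 members (14.9%), against 45.7% of all genes.

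Library 3 of Tsc1Δhep decided how many members fell. Without it, 30 members were called lower (34.5%, against 24.4% of all genes) and 3 higher (against 20.9%), and the median was −0.44. The 30 were 11 complex I subunits, 2 of their assembly factors, 2 complex III, 7 complex IV and 6 ATP synthase subunits, and 2 genes outside the complexes. Without library 1 of Tsc1Δhep, the median turned to 0.10, with 4 members called higher (against 9.16% of all genes) and 1 lower (against 14.8%). Without Tsc1Δhep library 2, 1 member was called higher (against 3.51%) and 1 lower (against 9.1%). Without Tsc1/p62Δhep library 1, 0 were called higher (against 2.69%) and 1 lower (against 5.82%). The same member counts came without its library 2, against 2.94% and 6.11% of all genes. Without its library 3, 2 were called higher (against 5.12%) and 1 lower (against 9.37%). Of the 6 fits that each left out 1 library, Atp5sl kept its call in 4, Sdha in 3, Uqcrfs1 in 2, and Ndufaf5 and Ndufaf7 in 1 each. Cox6b2 kept it in 6, but it entered each of these tests only through Tsc1Δhep libraries in which it was high.

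**Figure D3:**
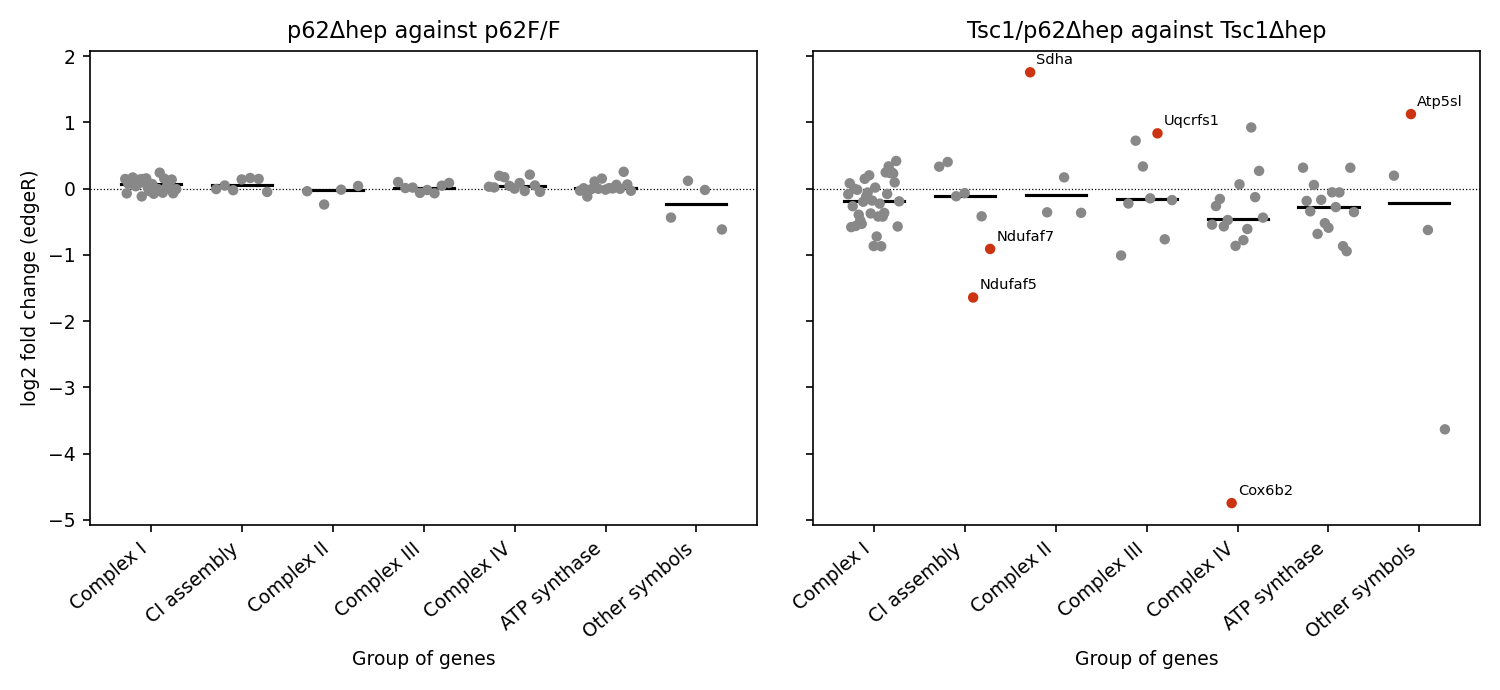
Log2 fold changes by edgeR, 1 point per member tested, with a bar at the median of each complex; red points have an adjusted p below 0.05. All points of p62Δhep against p62F/F lie between −0.62 and 0.25, while in Tsc1/p62Δhep against Tsc1Δhep they run from −4.75 for Cox6b2 to 1.76 for Sdha.

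In complex II, Sdha parted from its partners. Sdha was at 167, 166 and 379.6 CPM in Tsc1Δhep libraries 1 to 3 and at 820.5, 793 and 790.4 CPM in Tsc1/p62Δhep. All 3 Tsc1/p62Δhep libraries lay above all 3 of Tsc1Δhep, of which library 3 was the highest. The difference was 3.38-fold (log2 fold change 1.76 ± 0.37 SE, adjusted p = 0.0139). The call was lost without Tsc1Δhep library 2, Tsc1/p62Δhep library 1 or Tsc1/p62Δhep library 2, with an adjusted p of up to 0.0612.

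The other subunits of complex II did not move with Sdha. Sdhb, the iron-sulfur subunit that passes electrons on from the flavin of Sdha, was at 442, 245 and 183 CPM in Tsc1Δhep and 220.3, 228 and 231 CPM in Tsc1/p62Δhep (log2 fold change -0.36 ± 0.33 SE, adjusted p = 0.45). Sdhc, a membrane anchor, was at 222, 184 and 152 CPM and 206, 195 and 227 CPM (log2 fold change 0.17 ± 0.22 SE, adjusted p = 0.596). Sdhd, its partner in the membrane, was at 524, 309 and 210.4 CPM and 251, 257 and 302 CPM (log2 fold change -0.36 ± 0.34 SE, adjusted p = 0.452). In Sdhb, Sdhc and Sdhd the Tsc1/p62Δhep libraries overlapped those of Tsc1Δhep, and library 1 of Tsc1Δhep was the highest of its group, unlike in Sdha.

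The ratio of Sdha to Sdhb counts within a library needs no scaling between libraries. It was 3.41, 3.03 and 3.47 in p62F/F and 3.80, 4.34 and 3.24 in p62Δhep. In Tsc1Δhep it was 0.378, 0.675 and 2.07, below every other library, and in Tsc1/p62Δhep it was 3.72, 3.48 and 3.42. The ratio of Sdhb to Sdhd counts stayed between 0.751 and 1.05 in all 12 libraries. In the ratio of Sdha to Sdhb the Tsc1Δhep libraries stood apart, and the Tsc1/p62Δhep libraries lay within the range of those with Tsc1 intact. The ratio of Sdha to Sdhc was 0.752, 0.901 and 2.50 in Tsc1Δhep, where library 3 lay within the range of the libraries with Tsc1 intact, 2.12 to 3.19. In Tsc1/p62Δhep that ratio was 3.98, 4.08 and 3.48, above every other library. A ratio within a library does not remove the differences by transcript length that are described below for Tsc1Δhep. The transcripts were 2900 nucleotides long for Sdha, 1142 for Sdhb, 3171 for Sdhc and 1231 for Sdhd. The part of length in these ratios was not tested.

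**Figure D4:**
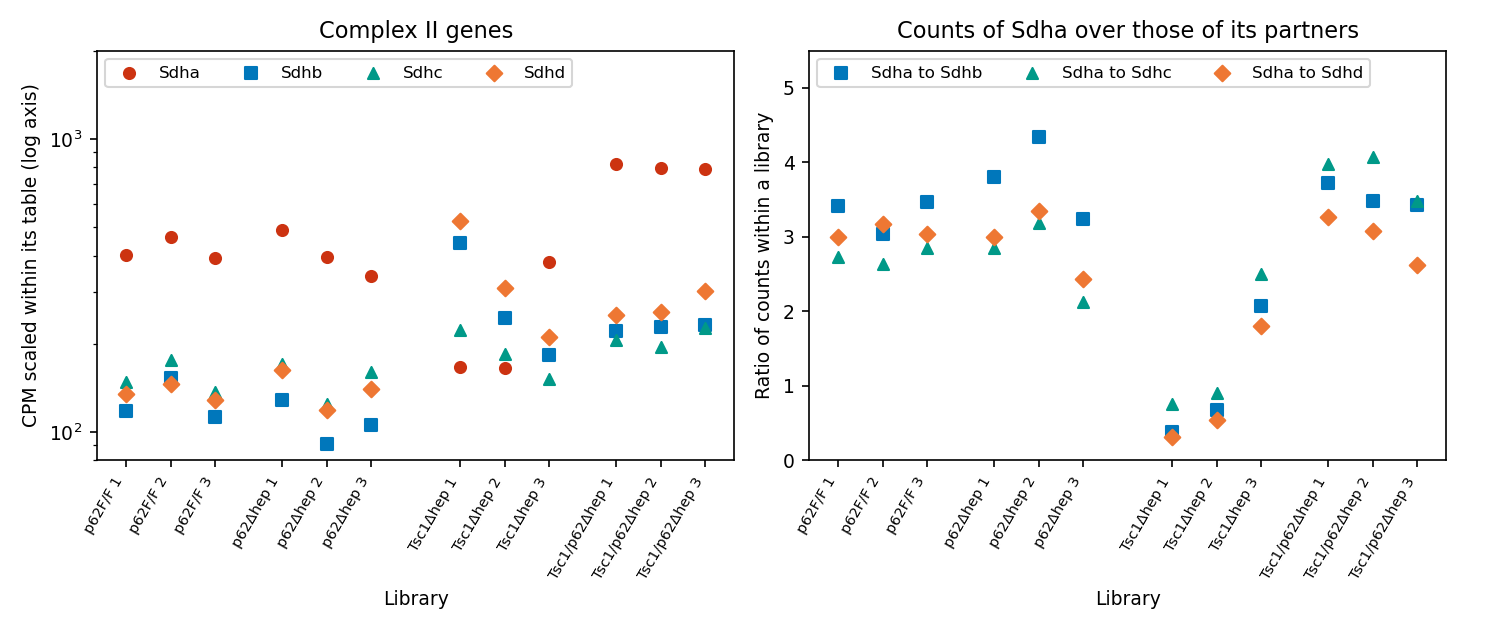
Left, CPM of the 4 complex II genes per library on a log axis, scaled within each table; right, ratio of Sdha counts to those of Sdhb, Sdhc and Sdhd within each library. The ratio of Sdha to Sdhb is 0.378 to 2.07 in Tsc1Δhep and 3.03 to 4.34 in the other 9 libraries.

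None of the 35 complex I subunits passed the test in Tsc1/p62Δhep against Tsc1Δhep by edgeR, 0 had an unadjusted p below 0.05, and DESeq2 and limma called 0. Their median log2 fold change was −0.18, with 11 above 0 and 24 below. Ndufs1, the largest iron-sulfur subunit, was at 174, 157 and 193 CPM in Tsc1Δhep and 207, 193 and 221 CPM in Tsc1/p62Δhep (log2 fold change 0.24 ± 0.20 SE, adjusted p = 0.387). Ndufv1, which binds NADH, was at 211, 140.5 and 146 CPM and 216, 196 and 252 CPM (log2 fold change 0.42 ± 0.24 SE, adjusted p = 0.235). Ndufb9, an accessory subunit in the membrane arm, was at 658, 356 and 185 CPM in Tsc1Δhep and 209, 199 and 249 CPM in Tsc1/p62Δhep (log2 fold change -0.87 ± 0.43 SE, adjusted p = 0.17). Ndufb4, also in the membrane arm, was at 37.6, 22.2 and 8.35 CPM and 10.5, 11.1 and 15.7 CPM (log2 fold change -0.87 ± 0.50 SE, adjusted p = 0.227). Core and accessory subunits were not separated by their spread: the core subunit Ndufv2 was at 321, 212 and 119 CPM in Tsc1Δhep, and the accessory subunit Ndufa10 at 201, 140.4 and 152 CPM. The count ratio of Ndufs1 to Ndufb9 was 0.265, 0.441 and 1.05 in Tsc1Δhep, against 0.891 to 0.991 in Tsc1/p62Δhep. Their transcripts were 2661 and 704 nucleotides long, and the part of length in this ratio was not tested.

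Of the 7 complex I assembly factors, 2 fell and 0 rose. Ndufaf5, which modifies an arginine of a core subunit during assembly, was at 36.6, 22.4 and 10.6 CPM in Tsc1Δhep and 6.36, 7.01 and 8.89 CPM in Tsc1/p62Δhep (log2 fold change -1.64 ± 0.44 SE, adjusted p = 0.032). Ndufaf7, a methyltransferase that modifies another core subunit, was at 44.9, 32.6 and 26.0 CPM and 19.1, 19.7 and 16.4 CPM (log2 fold change -0.91 ± 0.25 SE, adjusted p = 0.0377). In both genes every Tsc1/p62Δhep library lay below every Tsc1Δhep library. Both calls were kept in the fit without Tsc1Δhep library 3 and lost in the other 5 fits that left out a library, with an adjusted p of up to 0.125 for Ndufaf5 and 0.128 for Ndufaf7. In the table with Tsc1 intact, Ndufaf5 was at 4.06 to 5.79 CPM and Ndufaf7 at 15.0 to 17.4 CPM.

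In complex III, edgeR called 1 of 8 subunits higher and 0 lower. Uqcrfs1, the Rieske iron-sulfur protein that takes electrons from ubiquinol, was at 167, 125 and 154 CPM in Tsc1Δhep and 257, 222 and 315 CPM in Tsc1/p62Δhep (log2 fold change 0.83 ± 0.23 SE, adjusted p = 0.038). Every Tsc1/p62Δhep library lay above every Tsc1Δhep library, and the call was lost without Tsc1Δhep library 2 or without any 1 of the Tsc1/p62Δhep libraries, with an adjusted p of up to 0.127. Uqcrb, which helps hold the ubiquinone pocket, was at 106, 59.0 and 78.1 CPM and 111, 138 and 152 CPM (log2 fold change 0.72 ± 0.27 SE, adjusted p = 0.0868 by edgeR). It was called higher by DESeq2, by limma with the GC and length trend removed, with all 12 libraries in 1 fit and without Tsc1Δhep library 1. The core proteins Uqcrc1 and Uqcrc2 had log2 fold changes of 0.33 (adjusted p = 0.247) and -0.15 (adjusted p = 0.699). With Tsc1 intact, the ratio of Uqcrfs1 to Uqcrc1 counts was 0.961 to 1.08. The Tsc1Δhep libraries had ratios of 0.649, 0.498 and 0.622, and those of Tsc1/p62Δhep 0.801, 0.779 and 0.911. Uqcr10, a small membrane subunit, was at 311, 170.3 and 81.0 CPM in Tsc1Δhep and 84.1, 86.4 and 109 CPM in Tsc1/p62Δhep (log2 fold change -1.01 ± 0.45 SE, adjusted p = 0.134).

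Complex IV had the lowest median of the complexes, −0.46 over 14 subunits, with 3 above 0 and 11 below. Of these, edgeR called Cox6b2 alone. It met the minimum of counts and the filter on low counts only through Tsc1Δhep, where it was high, so its fall is no independent result. Cox6b2, known as the testis isoform of subunit 6B, was at 3.25, 5.36 and 2.53 CPM in Tsc1Δhep and 0.0706, 0.0655 and 0.26 CPM in Tsc1/p62Δhep, where the 3 libraries held 6 counts against 327 in Tsc1Δhep (log2 fold change -4.75 ± 0.63 SE, adjusted p = 0.00312). The groups did not overlap, and the level was low in both. Cox6b2 made up 0.815%, 1.85% and 1.70% of the counts of Cox6b1 and Cox6b2 in Tsc1Δhep, and at most 0.259% in any other library. Its widely expressed partner Cox6b1 was at 395, 285 and 147 CPM in Tsc1Δhep and 185, 188 and 222 CPM in Tsc1/p62Δhep (log2 fold change -0.47 ± 0.35 SE, adjusted p = 0.346).

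The core-facing subunits Cox4i1 and Cox5a, which bind the mitochondrially encoded centre of the enzyme, had log2 fold changes of -0.54 (adjusted p = 0.364) and -0.26 (adjusted p = 0.621). Cox4i1 was at 1020.1, 573 and 295 CPM in Tsc1Δhep and 393, 415 and 487 CPM in Tsc1/p62Δhep. The Tsc1/p62Δhep libraries lay within the Tsc1Δhep range. Cox6c was at 388, 224 and 126 CPM and 139, 123 and 143 CPM (log2 fold change -0.86 ± 0.39 SE, adjusted p = 0.139). Cox7c was the complex IV subunit with the highest fold change, at 41.3, 27.7 and 18.7 CPM and 79.0, 31.7 and 55.7 CPM (log2 fold change 0.92 ± 0.40 SE, adjusted p = 0.129), and the groups overlapped.

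Other isoforms known from muscle or lung stayed minor. Cox4i2, the lung isoform, held at most 0.0813% of the counts of Cox4i1 and Cox4i2 in any library, and Cox6a2, the heart and muscle isoform, at most 0.158% of those of Cox6a1 and Cox6a2. Cox7a1, another muscle isoform, held 0.203% to 0.698% of the counts of Cox7a1 and Cox7a2 in the libraries with Tsc1 intact and 1.24% to 5.39% in the others. Cox8b held 3.01% of the counts of Cox8a and Cox8b in Tsc1Δhep library 2 and at most 1.76% elsewhere. Of 12 striated muscle markers, 0 had enough counts to be tested in either comparison, and their sum was 0.224 to 3.55 CPM. The part of muscle RNA in these isoform shares was not tested.

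No ATP synthase subunit passed the test among 15 by edgeR, with 1 at an unadjusted p below 0.05, and DESeq2 and limma called 0. That 1 was Atp5g2, at 22.0, 26.6 and 17.7 CPM in Tsc1Δhep and 12.9, 16.1 and 15.1 CPM in Tsc1/p62Δhep (log2 fold change -0.59 ± 0.24 SE, adjusted p = 0.105), which was called lower with all 12 libraries in 1 fit and without Tsc1Δhep library 3. The median log2 fold change of the 15 was −0.28, with 3 above 0 and 12 below. Atp5a1, the alpha subunit, was at 1180.4, 977 and 1069 CPM in Tsc1Δhep and 1319, 1318 and 1380.1 CPM in Tsc1/p62Δhep (log2 fold change 0.32 ± 0.21 SE, adjusted p = 0.301). Atp5b, the beta subunit, was at 2208, 1654 and 1636 CPM and 1622, 1485 and 1725 CPM (log2 fold change -0.19 ± 0.24 SE, adjusted p = 0.586). These subunits form the catalytic head in equal numbers. Their count ratio, Atp5a1 to Atp5b, was 0.744 to 0.814 with Tsc1 intact and 0.535, 0.591 and 0.653 in Tsc1Δhep. With both genes deleted it was 0.800 to 0.888, so the Tsc1Δhep libraries were the lowest here too. The transcripts were 2674 and 1916 nucleotides long, and the part of length in this ratio was not tested. Atp5k, the small membrane subunit e, was at 289, 123 and 59.3 CPM in Tsc1Δhep and 78.5, 75.1 and 91.6 CPM in Tsc1/p62Δhep (log2 fold change -0.94 ± 0.51 SE, adjusted p = 0.204). Among the 3 genes of the proton-carrying c subunit, Atp5g3 held 70.4% to 85.5% of the counts in every library and Atp5g2 2.38% to 8.26%.

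Of the 4 genes outside the complexes, Atp5sl rose. Atp5sl, now named Dmac2 and known as a complex I assembly protein despite its symbol, was at 14.3, 22.9 and 17.3 CPM in Tsc1Δhep and 42.7, 38.0 and 38.2 CPM in Tsc1/p62Δhep (log2 fold change 1.12 ± 0.23 SE, adjusted p = 0.0137). The groups did not overlap, and the call was lost without Tsc1/p62Δhep library 1 or 2, with an adjusted p of up to 0.0692. Ndufa4l2, a hypoxia-induced relative of Ndufa4, was at 28.9, 1.65 and 1.41 CPM in Tsc1Δhep and 0.989, 1.05 and 0.519 CPM in Tsc1/p62Δhep (log2 fold change -3.63 ± 1.24 SE, adjusted p = 0.0687), so 1 library held nearly all of its signal. Cox7a2l, which links complexes III and IV into supercomplexes, was at 115, 71.9 and 35.6 CPM and 54.0, 43.9 and 46.3 CPM (log2 fold change -0.62 ± 0.39 SE, adjusted p = 0.265). Atp5s, known as coupling factor B, was at 6.98, 2.82 and 3.94 CPM and 6.50, 5.05 and 4.15 CPM (log2 fold change 0.20 ± 0.40 SE, adjusted p = 0.741).

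The effect of p62 loss differed between the Tsc1 backgrounds for the same 6 members, by the interaction contrast of a model of all 12 libraries. They were 6.90% of the members, against 16.1% of all 13231 genes tested. The 3 with a higher effect with Tsc1 deleted compare with 6.76% of all genes, and the 3 with a lower effect with 9.32%. The difference was 1.79 for Sdha (adjusted p = 0.017), 1.00 for Atp5sl (adjusted p = 0.0393) and 0.90 for Uqcrfs1 (adjusted p = 0.0413) on the log2 scale. It was -1.81 for Ndufaf5 (adjusted p = 0.0317), -4.04 for Cox6b2 (adjusted p = 0.043) and -0.87 for Ndufaf7 (adjusted p = 0.0491). The interaction uses the same Tsc1Δhep and Tsc1/p62Δhep libraries as the comparison above. Without Tsc1Δhep library 3 it called 23 members lower (against 18.9% of all genes) and 3 higher (against 17.8%), and with each p62F/F library left out in turn it called 1 higher and 0 lower. It also called 0 lower without p62Δhep library 2 or 3, Tsc1Δhep library 2, or Tsc1/p62Δhep library 1 or 2, with 0 to 2 higher in these fits. Over the 11 fits that left out 1 library other than Tsc1Δhep library 3, 3.44% to 7.09% of all genes were called higher and 4.98% to 9.1% lower.

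Short and long transcripts differed within Tsc1Δhep, and the members are mostly short. The 46 members with transcripts under 1000 nucleotides had a median log2 ratio of library 1 to library 3 of 1.34, and the 41 longer ones 0.87. Over all genes tested, the medians were 1.10 for those under 1000 nucleotides and −0.05 for the longer ones. Spearman's rho of this ratio with transcript length was −0.398 across members and −0.494 across all genes, as a description across genes that share the same libraries. In Tsc1/p62Δhep against Tsc1Δhep, the shorter members had a median log2 fold change of −0.38 and the longer ones −0.11, and over all genes these were −0.60 and −0.02.

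After removal, library by library, of the trend with GC content and length, limma called 13 members higher (14.9%, against 15.5% of all genes) and 3 lower (3.45%, against 17.5%), and the median, −0.11 by limma without that step, turned to 0.12. The 6 members named above were called there too. The other 10 were Cox7c, Ndufaf2, Ndufb11, Ndufs3, Ndufs4, Ndufs6, Ndufs7, Ndufv1, Uqcrb and Uqcrc1, all higher. The direction of the members as a group thus differed between these fits, while in both of them Sdha was called and Sdhb, Sdhc and Sdhd were not.

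**Figure D5:**
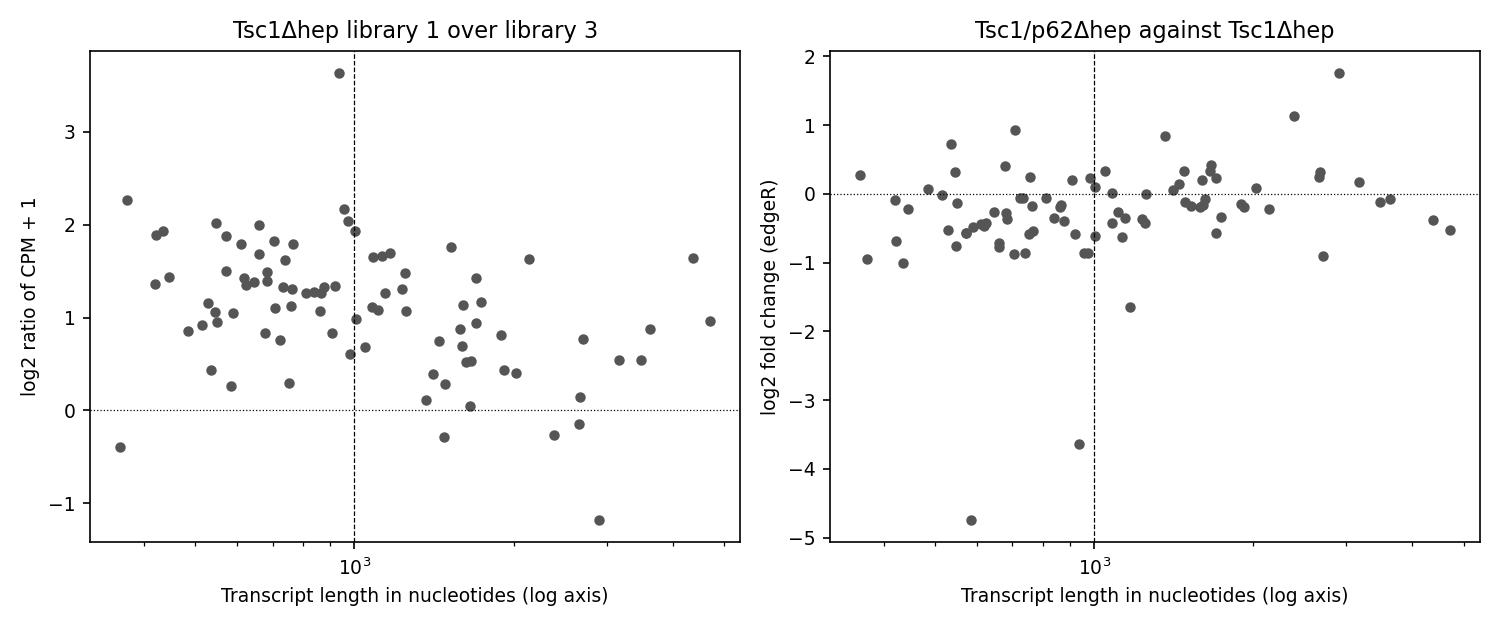
Each point is a member placed by transcript length on a log axis, with a dashed line at 1000 nucleotides; left, log2 ratio of CPM + 1 of Tsc1Δhep library 1 to library 3, right, log2 fold change of Tsc1/p62Δhep against Tsc1Δhep. On the left the shorter members have a median of 1.34 and the longer ones 0.87.

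Genes that serve the chain but carry other symbols moved in both directions in Tsc1/p62Δhep against Tsc1Δhep, and in p62Δhep against p62F/F edgeR, DESeq2 and limma called 0 genes of these 7 lists, with 3 at an unadjusted p below 0.05 by edgeR. Among 3 ATP synthase genes with other symbols, Atpif1 alone was called, and it fell (33.3%, against 14.9% of all genes called lower). Atpif1, which blocks the enzyme from running backwards, was at 163, 109 and 42.0 CPM in Tsc1Δhep and 16.7, 18.4 and 17.5 CPM in Tsc1/p62Δhep (log2 fold change -2.58 ± 0.46 SE, adjusted p = 0.00794). All 3 Tsc1Δhep libraries lay above those of Tsc1/p62Δhep. Among 19 genes of outer membrane channels, import and ATP/ADP exchange, 3 fell (15.8%, against 14.9% of all genes) and 0 rose (against 9.25%). Slc25a4, an exchanger of ADP for ATP across the inner membrane known from heart and muscle, was at 364, 250.4 and 131 CPM in Tsc1Δhep and 4.52, 3.67 and 5.39 CPM in Tsc1/p62Δhep (log2 fold change -5.78 ± 0.45 SE, adjusted p = 0.000581). It was at 3.36 to 5.78 CPM with Tsc1 intact, so its level in Tsc1/p62Δhep was like that in the other table. The import genes Tomm22 and Timm50 fell by 1.30 and 0.87 on the log2 scale (adjusted p = 0.0258 and 0.0187).

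Among 35 assembly factors outside the symbol rule, 1 rose (2.86%, against 9.25% of all genes) and 2 fell (5.71%, against 14.9%). Lyrm7, which brings the Rieske protein into complex III, was at 5.07, 2.74 and 1.88 CPM in Tsc1Δhep and 0.494, 0.59 and 0.714 CPM in Tsc1/p62Δhep (log2 fold change -2.41 ± 0.50 SE, adjusted p = 0.0132). By library totals Lyrm7 was at 0.443 to 0.618 CPM in Tsc1/p62Δhep, so it passed the filter on low counts only through Tsc1Δhep, where it was high. Its fall is therefore no independent result. Cox17, the copper chaperone of complex IV, was at 95.7, 57.0 and 30.5 CPM and 19.4, 18.2 and 23.5 CPM (log2 fold change -1.59 ± 0.40 SE, adjusted p = 0.0264). Nubpl, which delivers iron-sulfur clusters to complex I, was at 8.58, 3.68 and 3.57 CPM and 15.6, 10.5 and 13.6 CPM (log2 fold change 1.33 ± 0.40 SE, adjusted p = 0.0486). The list's median log2 fold change was −0.12. None of these 3 genes overlapped between groups, which held for 25.7% of the list's genes and 45.7% of all genes.

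Among 22 regulators of mitochondrial biogenesis, 4 rose (18.2%, against 9.25% of all genes) and 0 fell (against 14.9%). Gabpa, a transcription factor of the ETS family, was at 47.9, 33.9 and 45.6 CPM in Tsc1Δhep and 100.4, 97.9 and 65.0 CPM in Tsc1/p62Δhep (log2 fold change 1.05 ± 0.25 SE, adjusted p = 0.0229). Esrrg, a nuclear receptor of the ERR family, was at 0, 0.0813 and 0.282 CPM and 3.96, 2.36 and 5.84 CPM (log2 fold change 5.07 ± 0.85 SE, adjusted p = 0.00657). It had 9 counts in all in Tsc1Δhep, so that it passed the filter only through Tsc1/p62Δhep, where it was high. Its rise is therefore no independent result, though it is counted among the 4 that rose. The transcription factor Yy1 and Polg2, the accessory subunit of the mitochondrial DNA polymerase, rose by 0.72 and 1.38 on the log2 scale (adjusted p = 0.0382 and 0.0111). Ppargc1a, a coactivator of mitochondrial genes, was at 25.4, 22.4 and 18.9 CPM and 34.2, 20.4 and 27.1 CPM (adjusted p = 0.421).

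Among 18 genes of pyruvate dehydrogenase and the citric acid cycle, 2 rose (11.1%, against 9.25% of all genes) and 2 fell (11.1%, against 14.9%). Dlst, a subunit of the 2-oxoglutarate dehydrogenase, was at 92.5, 115 and 147 CPM in Tsc1Δhep and 302, 295 and 307 CPM in Tsc1/p62Δhep (log2 fold change 1.35 ± 0.24 SE, adjusted p = 0.00772). Sucla2, of the succinyl-CoA ligase, rose by 0.85 (adjusted p = 0.049). These enzymes stand upstream of succinate dehydrogenase in the cycle. Idh2, an isocitrate dehydrogenase that makes NADPH, fell by 0.81 on the log2 scale (adjusted p = 0.0325). In ubiquinone synthesis, 1 of 13 genes rose (7.69%, against 9.25% of all genes) and 2 fell (15.4%, against 14.9%). Coq10a rose (log2 fold change 0.94), and Pdss1 (log2 fold change -1.34) and Adck4 (adjusted p = 0.0278) fell. Among 5 electron carriers tested, 0 were called by edgeR or limma and 1 by DESeq2, and 1 had an unadjusted p below 0.05 by edgeR. Cyc1, the cytochrome c1 of complex III, was at 449.9, 324 and 236 CPM in Tsc1Δhep and 235, 215 and 251 CPM in Tsc1/p62Δhep (log2 fold change -0.53 ± 0.28 SE, adjusted p = 0.193).

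Markers of the cell types of liver moved in the same comparison as the members. Of 14 hepatocyte markers, 9 rose (64.3%, against 9.25% of all genes) and 0 fell in Tsc1/p62Δhep against Tsc1Δhep. Their sum was 30274, 61390.0 and 29588 CPM in Tsc1Δhep and 91048 to 124605 CPM in Tsc1/p62Δhep. Of 8 cholangiocyte and progenitor markers tested, 3 fell (37.5%, against 14.9% of all genes). The sum of the 10 listed was 5278, 2252 and 789 CPM in Tsc1Δhep libraries 1 to 3 and 104 to 147 CPM in Tsc1/p62Δhep. Library 1 was thus the highest and library 3 the lowest in this sum, as for 71 of the 87 members. Spp1, which encodes the secreted protein osteopontin, made up most of it, at 5185, 2212 and 724 CPM in Tsc1Δhep. Krt19, a keratin of bile duct cells, was at 13.6, 1.19 and 2.96 CPM in the same libraries. Of 10 macrophage and Kupffer cell markers, 6 fell by edgeR (60%, against 14.9% of all genes). Their sum was 269 to 422 CPM in Tsc1Δhep and 109 to 127 CPM in Tsc1/p62Δhep. Of these 10, 3 had a log2 fold change above 0, up to 2.68, and DESeq2 and limma each called 1 higher. Stellate cell markers had 4 of 10 lower by edgeR (40%) and endothelial markers 2 of 10 (20%), against 14.9% of all genes. Limma called 1 stellate cell marker higher. In both lists 5 log2 fold changes lay above 0 and 5 below. Their sums in Tsc1Δhep ran the other way, with library 1 the lowest and library 3 the highest, at 58.0, 301 and 335 CPM for stellate and 56.3, 125 and 237 CPM for endothelial markers. Neutrophil markers had 2 of 3 lower by edgeR (66.7%, against 14.9% of all genes), 3 by DESeq2 and 0 by limma. Adipocyte markers had 1 of 1 lower. The sums of these 2 lists in Tsc1Δhep were 11.5, 4.36 and 4.27 CPM and 66.1, 27.9 and 11.2 CPM. Library 1 was again the highest and library 3 the lowest. In Tsc1/p62Δhep the neutrophil markers summed to only 0.983 to 1.36 CPM. At such levels most of those tested could pass the filter on low counts only through Tsc1Δhep, where they were higher. Their fall is therefore no independent result. Of 1 T and NK cell marker and 3 B and plasma cell markers tested, 0 were called by edgeR or limma and 1 of the latter by DESeq2, with 1 at an unadjusted p below 0.05 by edgeR. In p62Δhep against p62F/F, edgeR called 0 markers of these cell types, with 6 at an unadjusted p below 0.05, limma called 0, and DESeq2 called 1 macrophage marker higher and 1 cholangiocyte marker lower. The part of these cell types in the members' values was not tested.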

How the data were processed

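Per the labels, poly(A) RNA of frozen liver pieces was made into strand-directed libraries and sequenced single-end with 75 nucleotides or paired-end; the sources used here do not say which library ran how. The authors deposited 2 tables of gene counts, each with 6 libraries, whose values are whole numbers with differing totals, so they were used as raw counts. Aligner, counter, annotation and strand setting were not given in the sources used here. A human build, hg19, stands in the submitters' processing notes, although the symbols are those of mouse. Nothing was placed on that build.

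Samples were grouped and numbered by their titles. Within each table, genes were kept with filterByExpr (10 counts, 15 in total), scaled by TMM and tested with edgeR 4.0.16 by its quasi-likelihood test, with Benjamini-Hochberg adjustment over all genes tested and a threshold of 0.05. The fold changes and SE are from that fit. The difference between Tsc1 backgrounds was an interaction contrast over 12 libraries. Alternatives were RLE scaling, no filter, DESeq2 1.42.0 and limma 3.58.1 on log2(CPM + 1), also with each library's GC and length trend removed. All libraries in 1 fit, the replicate number as a block and leaving out each library were the others. The edgeR fit was tested on simulated data.

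Named genes are, by rule, the 3 members of each complex with the smallest p, core subunits, isoform sets, genes outside the complexes and the first 2 by p of 7 pathway lists. Others named were chosen after their values were seen. Values of some genes of these lists are not reported here. The members and all 17 lists, 10 of them of cell type markers, were chosen with earlier results of these data known. GC content and length came from GENCODE and were found for all 87 members.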

Additional observations from a re-analysis of the deposited data

Results flagged for a closer look

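The effect of p62 loss differed between livers with and without Tsc1 for 6 members, by the interaction contrast of edgeR over all 12 libraries. Of all 13231 genes tested, 16.1% were called. The difference in log2 fold change was 1.79 for Sdha, 1.00 for Atp5sl and 0.90 for Uqcrfs1, so these rose more, or fell less, with Tsc1 deleted. It was -1.81 for Ndufaf5, -4.04 for Cox6b2 and -0.87 for Ndufaf7. With Tsc1 intact, Cox6b2 had too few counts to be tested, at no more than 0.327 CPM in any of those libraries, so its difference rests on the Tsc1-deleted table. With 3 libraries a group, no group was large enough to be searched for a library far from the others.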

How the results depend on the processing

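In p62Δhep against p62F/F, 0 members were called under every alternative run. In Tsc1/p62Δhep against Tsc1Δhep, the 3 members called higher became 13 with the GC and length trend removed, and 0 to 4 when each library was left out in turn. The 3 called lower became 5 with all 12 libraries in 1 fit and 1 to 30 when each library was left out. For the fit of all 12 libraries, the share of all genes called is not given here. In the interaction, leaving out each library gave 0 to 3 members higher and 0 to 23 lower. The mean summed CPM of Tsc1/p62Δhep was 13503 by TMM over 12 libraries, against 12295 by library totals. That of Tsc1Δhep was 14776 by TMM over 12 libraries, against 16918 by library totals.

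The replicate numbers did not pair the libraries: the correlation of same-numbered libraries' deviations was −0.112 to −0.0713 in the Tsc1-deleted table and −0.471 to 0.0395 in the other. With the replicate number as a block, 2 members were called higher and 1 lower in Tsc1/p62Δhep against Tsc1Δhep, and 1 higher and 0 lower in the interaction. The shares of all genes called in the block fits are not given here, so these counts have no background beside them.

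Signs of some uncalled members of Tsc1/p62Δhep against Tsc1Δhep turned. With the GC and length trend removed, the log2 fold change became 0.0092 for Sdhb, 0.045 for Uqcrc2, 0.22 for Cox5a and 0.028 for Cox6b1. With each library left out in turn, it ran from −0.58 to 0.085 for Sdhb, −0.60 to 0.061 for Sdhd, −0.31 to 0.072 for Uqcrc2, −0.50 to 0.22 for Cox5a and −0.69 to 0.053 for Ndufc1, each highest without Tsc1Δhep replicate 1, and from −0.053 to 0.64 for Atp5s. The cause was not tested. Of 770 settings tried for single genes, 598 kept direction and side of the threshold, 142 lost the call, 20 gained it and 10 changed sign. Low counts limit Cox6b2, Cox7a1, Cox8b and Ndufa4l2, whose values rest on few counts in most libraries.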
